A study of Mus musculus with 10 samples.

Results

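Long intergenic non-coding RNA (lincRNA) loci were followed strand by strand on 10 arrays that read the RNA of vesicles released in mouse brain. The members are all non-control probes whose name contains lincRNA, 1806 of the 60823 non-control probes of the array. The name also carries a locus number and a strand sign, which put 913 probes on the plus strand and 893 on the minus strand of 954 numbered loci. Both strands had a probe at 852 loci, while 61 loci had a plus probe alone and 41 a minus probe alone. Each locus strand had 1 probe, printed as 1 spot.

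The arrays compared male C57BL/6J mice exposed to chronic intermittent ethanol vapor (CIE, 5 samples) with males kept in room air (Control, 5 samples). Both groups had daily sessions of 8 h, given on 5 days in each of 4 weeks, and no other treatment is named. Vesicles were taken from whole brain right after the last day, so every brain cell type may have contributed to them. The labels give neither the animals' age nor the number of animals behind a sample, so the spread between samples may be partly technical.

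LincRNAs are long transcripts with little or no coding potential that arise between protein-coding genes. Many were first mapped from chromatin marks of active promoters and transcribed bodies, which show that a region is transcribed but not which strand is read. Promoters can also fire in both directions, so a single locus may give transcripts from either strand. In brain, such RNAs are often scarce and restricted to particular cell types, and vesicles released by cells can carry whole transcripts or fragments of them. A probe for each strand is thus a direct reading of the transcribed strand, provided that each probe binds only its own target. Whether the sign in a name is that of the genome strand of the RNA is not stated in the files, and the signs are used below as they are printed.

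Levels below are log2 processed intensities relative to the 75th percentile of the same array's non-control probes, so 0 is that percentile and 1 unit is a doubling. A probe is called detected on an array where the scanner program marks it well above background. Probes differ in how strongly they bind, so a gap between the 2 strands of a locus is a gap between readings and not a ratio of molecules.

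The 75th percentile itself lay between 69.7 and 192 intensity units on the 10 arrays, and no spot was saturated. Of 28 marker genes listed for brain cells, vesicles and other tissues, 7 could be matched to a probe. Probes for Mbp (a myelin protein), Apoe (a lipid carrier of glia), Chgb (a secretory granule protein), Gabrg1 (a GABA receptor subunit) and Kcnn2 (a potassium channel) were detected on all 10 arrays. Those for Il2, a T cell cytokine, and Tyr, the melanocyte pigment enzyme, were detected on 2 arrays and on 0. Slides were told apart by the scan date of each array. By that rule slide 1 held 8 arrays, among them all 5 Control arrays, and slide 2 held CIE 8 and CIE 10 alone. The position row was taken from the leading part of each array's barcode entry, a reading that the entry itself does not state. On slide 1, Control 1, 4, 6 and 7 lay in position row 1. Control 9 and CIE 2, 3 and 5 lay in row 2, so row and group nearly coincide there. A control probe for the 5′ part of human GAPDH read 2.80 on Control 7 and 3.49 on CIE 8, while no other array exceeded 0.47. The median of the humanlincRNA probes minus that of the mouselincRNA probes was -0.07 on Control 7 and -0.19 on CIE 8. On the other 8 arrays it lay between -0.16 and 0.15, so CIE 8 was the lowest array.

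Both strands were detected equally often. On at least 5 of the 10 arrays, 390 of the 913 plus probes (42.7%) and 381 of the 893 minus probes (42.7%) were well above background. All 10 arrays detected 259 plus probes (28.4%) and 253 minus probes (28.3%), while 370 plus probes (40.5%) and 375 minus probes (42.0%) were detected on none. The remaining 153 plus and 137 minus probes were detected on 1 to 4 arrays. By the same count of at least 5 arrays, 70.8% of all non-control probes were detected, 70.9% of the LNC series and 38.2% of the UP series, so the lincRNA probes lay near the low end among the named series. At loci with a single probe, 26 of 61 plus probes (42.6%) and 17 of 41 minus probes (41.5%) were detected.

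Shares differed more between arrays than between strands. On Control 1, 4, 6, 7 and 9, the share of plus probes detected was 38.7%, 49.4%, 44.1%, 43.4% and 53.0%. On CIE 2, 3, 5, 8 and 10 it was 34.4%, 38.3%, 42.4%, 34.6% and 48.8%. The groups overlapped, with Control 9 highest and CIE 2 lowest. The 75th percentile intensity was also highest on Control 9 (192) and was lowest on CIE 8 (69.7), and its part in the shares was not tested. The minus share followed array by array, at 37.7%, 47.7%, 43.8%, 42.7% and 51.5% in Control and 34.5%, 38.7%, 42.4%, 34.2% and 48.7% in CIE. Plus and minus shares thus stayed within 1.69 percentage points of each other on each of the 10 arrays.

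Fewer lincRNA probes were detected in CIE on average, on both strands. In Control the plus share was 45.7% ± 5.55 and in CIE it was 39.7% ± 6.05 (SD, n = 5 each), a difference of -5.99 percentage points. For minus probes the means were 44.7% ± 5.21 and 39.7% ± 6.07 (SD, n = 5 each), a difference of -4.99. Each difference is about the size of 1 SD within a group, and no test was made of these shares. Over all non-control probes the share went from 71.5% ± 4.04 to 67.4% ± 5.04 (SD, n = 5 each). Within slide 1 the differences were -7.34 points for plus and -6.15 points for minus probes. Position row and group nearly coincide there, and the part of row was not tested. The 3′ minus 5′ signal of mouse GAPDH, a measure of RNA integrity, was 0.58 ± 0.32 in Control and 0.90 ± 0.29 in CIE (SD, n = 5 each), and its part in the detection shares was not tested.

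The plus share minus the minus share was small and its ranges barely overlapped between the groups. It lay between 0.306 and 1.69 points on the 5 Control arrays, above 0 on each, and between -0.385 and 0.456 points on the CIE arrays. The group means were 1.02 ± 0.565 and 0.0114 ± 0.311 points (SD, n = 5 each). One percentage point corresponds to a handful of probes, and this contrast was seen among many and not tested.

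**Figure D1:**
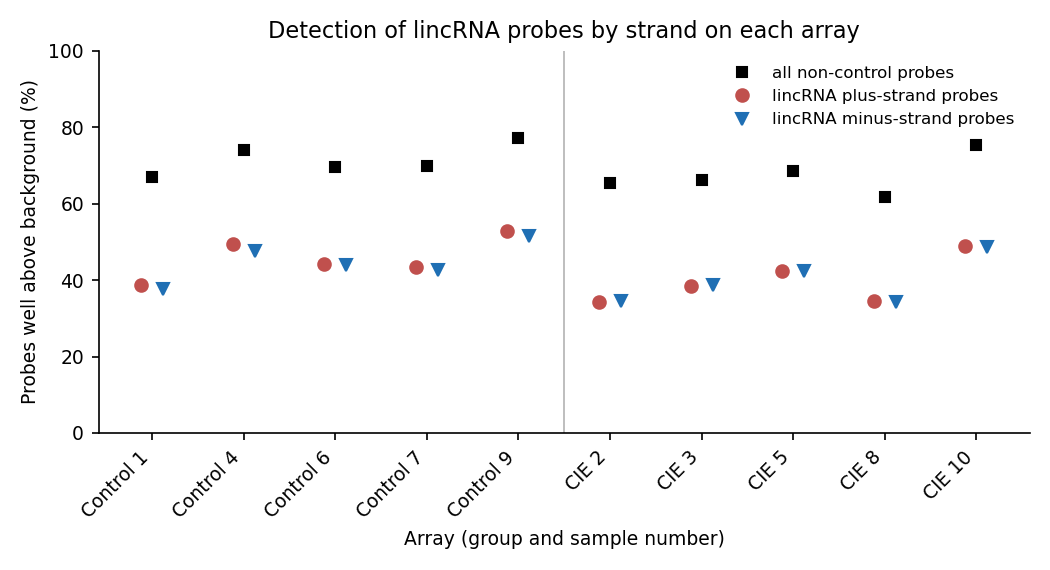
Share of probes well above background (%, vertical axis) on each of the 10 arrays, for lincRNA plus-strand probes (circles), lincRNA minus-strand probes (triangles) and all non-control probes (squares). The 2 strands move together from array to array, between 34.2% and 53.0%, and lie below all probes on every array.

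Levels were also alike. The detected plus probes had a median level of -1.54 and the detected minus probes of -1.69. On each of the 10 arrays the median of the detected plus probes was the higher one, by 0.046 to 0.221 log2 units. Over all members, detected or not, the gap had no steady sign and averaged -0.0035 ± 0.14 (SD, n = 10). Levels above 0, the 75th percentile of the array, were reached by 97 plus and 92 minus probes.

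A few lincRNA probes were among the bright ones on either strand. The plus probe of humanlincRNA2397 had the highest mean of its strand, 9.81, followed by those of humanlincRNA1739 (9.35), MM9LINCRNAEXON10664 (9.06), humanlincRNA2330 (8.90) and MM9LINCRNAEXON11711 (8.74). Among minus probes mouselincRNA1606 led with 10.39, followed by mouselincRNA0161 (9.11), humanlincRNA0847 (8.49), humanlincRNA1516 (7.61) and humanlincRNA2163 (7.40). These 10 probes were detected on all 10 arrays, and none had a limma adjusted p under 0.989 for CIE against Control.

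At the 852 loci with a probe for each strand, a single strand well above background was more common than both, an order that depended on the detection call. With the scanner program's weaker call, positive and significant, both strands were detected at 406 loci and a single strand at 356. The plus probe was detected at 364 loci and the minus probe at 364 (42.7% each). Both were detected at 168 loci (19.7%), the plus probe alone at 196, the minus probe alone at 196 (23.0% each), and neither at 292 (34.3%). Where the plus probe was detected, the minus probe was too at 168 of 364 loci (46.2%), and where it was not, the minus probe was detected at 196 of 488 (40.2%). Of the 560 loci with a signal well above background, the larger share gave it from a single strand by this stricter call alone.

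At most single-strand loci the other strand was detected on no array. At 98 loci the plus probe was detected on all 10 arrays and the minus probe on none, and at 78 loci the reverse held. Both strands were detected on all 10 arrays at 79 loci, and neither on any array at 152. Among the plus-only loci the minus probe was on no array at 152 of 196 (77.6%), and among the minus-only loci the plus probe was on no array at 132 of 196 (67.3%). Median levels at plus-only loci were -1.68 for the plus and -5.50 for the minus probe, and at minus-only loci -5.36 for the plus and -1.82 for the minus probe.

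**Figure D2:**
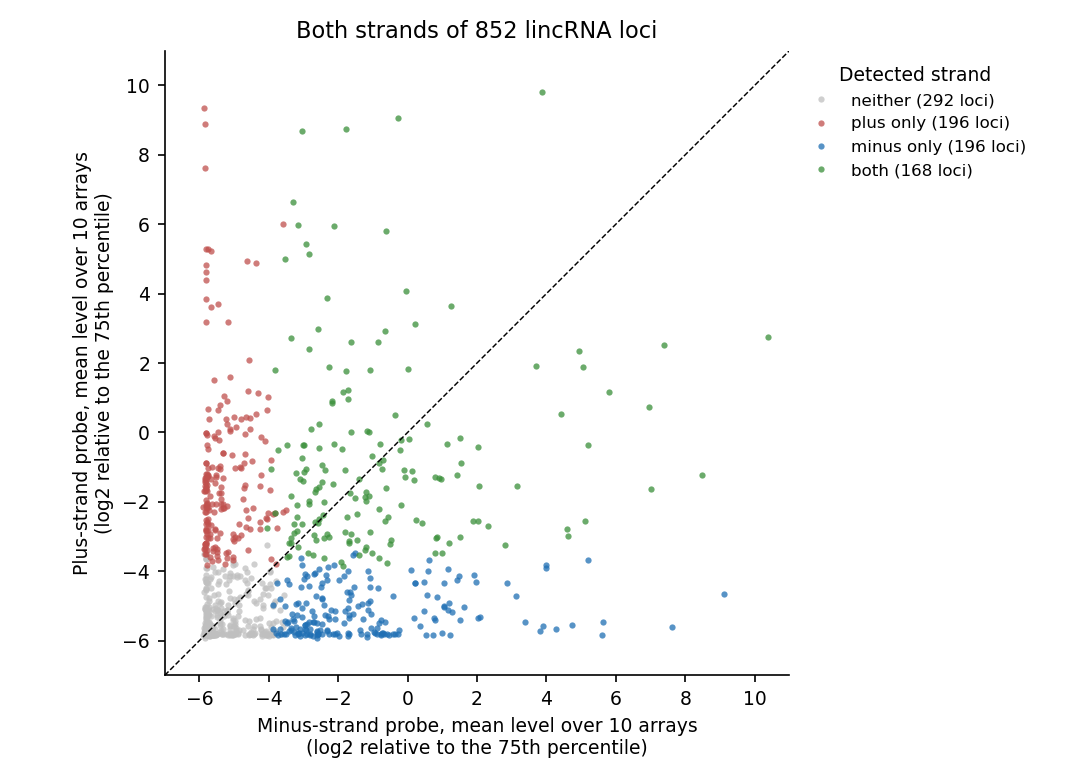
Mean level over 10 arrays of the plus-strand probe (vertical axis) against the minus-strand probe (horizontal axis) of 852 loci, both in log2 units relative to the 75th percentile, with colours for the strand detected on at least 5 arrays and a dashed line of equal level. The 196 plus-only and 196 minus-only loci form bands along the axes, where the other strand reads near -5.5, and the 168 loci with both strands spread to either side of the line.

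The widest gaps came from loci where the second strand read at background. At humanlincRNA1739 the plus probe read 15.22 log2 units above the minus probe on average, between 15.01 and 15.50 on the 10 arrays, and the minus probe was detected on none of them. humanlincRNA2330 followed with a gap of 14.75, humanlincRNA1596 with 13.48 over the 7 arrays where its plus spot was not an outlier, and humanlincRNA0406 with 11.11, again with the minus probe detected on 0 arrays. At humanlincRNA0635 the gap was 11.71 although the minus probe was detected on 8 arrays, at a mean level of -3.03. Where the second strand was not detected, such a gap is the distance to a background reading and not to a transcript.

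Gaps in the reverse order were somewhat smaller at each rank. The minus probe of mouselincRNA0161 lay above the plus probe on all 10 arrays, the plus minus minus gap averaging -13.78, with the plus probe detected on 2 arrays. Gaps of -13.23 at humanlincRNA1516, -11.42 at humanlincRNA0267, -11.10 at humanlincRNA0502 and -10.29 at mouselincRNA0725 had the plus probe detected on 0 arrays. The gap was steady at humanlincRNA1739 (SD 0.17 over 10 arrays) and at humanlincRNA2330 (SD 0.19), and looser at humanlincRNA0406 (SD 1.92).

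Where both strands were detected, neither was favoured. The plus probe had the higher mean at 80 of the 168 loci (47.6%). It was higher on every measured array at 54 loci, the minus probe was higher on every measured array at 56, and at 58 the order changed between arrays. The median absolute gap was 1.90 log2 units, with a range of 0.0224 to 11.7. At 50 loci the 2 strands lay within 1 unit, and at 53 they lay over 3 units apart.

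The brightest second strands were found at 5 loci. At humanlincRNA2397 the plus probe averaged 9.81 and the minus probe 3.86. mouselincRNA1606 had the opposite order, 2.75 against 10.39, as had humanlincRNA2163, with 2.53 against 7.40. At humanlincRNA2246 the plus probe averaged 2.35 and the minus probe 4.94 over the 8 arrays that measured it, and at mouselincRNA0970 the means were 1.91 and 3.69. Both probes of these 5 loci were detected on every array that measured them, and the order of the strands was the same on all of those arrays.

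Where both strands were detected, the order thus changed between arrays at 34.5% of the loci. Where one strand read at background, the order followed largely from that. Over the 560 loci with at least 1 detected strand, the plus probe was higher on every measured array at 236 and the minus probe at 232. The brighter strand differed between the means of CIE and Control at 12 loci, 11 of them with both strands detected. At those 12 loci the mean gap was at most 0.143 log2 units, against an SD over arrays of at least 0.412, so the strands differed by less than their spread.

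The strand pattern of an array moved with how much it detected. Loci with both strands detected numbered 136, 205, 177, 173 and 242 on Control 1, 4, 6, 7 and 9. On CIE 2, 3, 5, 8 and 10 they numbered 108, 134, 162, 114 and 213. Control 9 and CIE 10 had the most such loci and CIE 2 and CIE 8 the fewest, and the groups overlapped. Loci with the plus probe alone stayed between 179 and 213 and those with the minus probe alone between 174 and 203 on all 10 arrays.

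**Figure D3:**
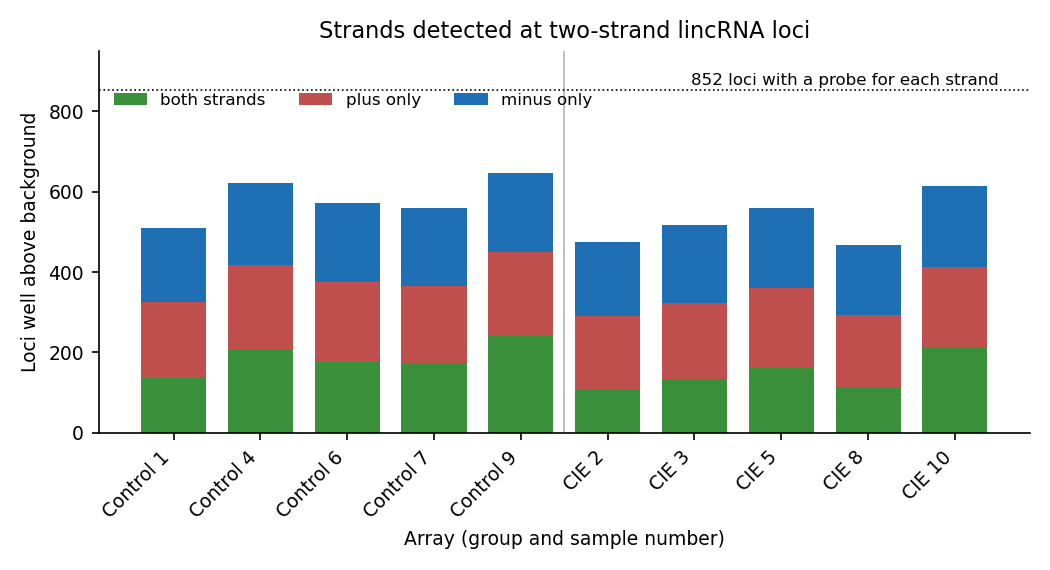
Number of the 852 two-strand loci (vertical axis) with both strands, the plus strand alone or the minus strand alone well above background, as stacked bars for each of the 10 arrays; the dotted line marks all 852 loci. The loci with both strands range from 108 on CIE 2 to 242 on Control 9, while the single-strand classes stay between 174 and 213.

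Taken by group, most loci kept their pattern. With detection on at least 3 of the 5 arrays of a group as the rule, 737 of 852 loci had the same pattern in Control and CIE. Among the 115 others, 111 lost a strand in CIE and 3 gained one. The 3 gains were humanlincRNA1025, humanlincRNA2278 and mouselincRNA1049, each with neither strand in Control and the minus strand in CIE. At the remaining locus, mouselincRNA0448, the minus strand alone was detected in Control and the plus strand alone in CIE, at mean levels of -3.55 (plus) and -3.41 (minus) over the 10 arrays. These 4 loci were picked out after their values were seen.

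Per probe, 118 of the 1806 members (6.53%) were detected on at least 3 Control arrays and fewer than 3 CIE arrays, where the background over all non-control probes was 5.29%. By strand these were 64 plus (7.01%) and 54 minus probes (6.05%). The opposite held for 4 members (0.221%), 1 plus and 3 minus, where the background was 0.661%. A stricter rule asked for all 5 arrays of one group and at most 2 of the other. It found 9 plus (0.986%) and 8 minus probes (0.896%) detected in Control, against a background of 0.681%, and 0 members detected in CIE, against a background of 0.0345%.

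No lincRNA probe differed between CIE and Control at the threshold of 0.05. The test was run on the 43080 probes detected on at least 5 arrays, 390 of them plus and 381 minus lincRNA probes. By limma with Benjamini-Hochberg adjustment, 0 probes were called on either strand, where the background was 0% of all tested probes. The smallest adjusted p of a lincRNA probe was 0.989. At an unadjusted limma p under 0.05, 11 plus and 6 minus probes stood apart, 17 of 771 (2.20%), where the background was 2.14%. Both shares rested on the arrays and on the fit: they were 76 of 771 (9.86%) against 5.45% without CIE 5, 49 (6.36%) against 5.44% without CIE 10, 63 (8.17%) against 5.04% with slide as a block, and 8 (1.04%) against 0.956% without Control 4. With consecutive sample numbers (1 and 2, 3 and 4, and so on) as a block, each block holding 1 Control and 1 CIE array, they were 145 (18.8%; 116 lower and 29 higher in CIE) against 14.8%. The labels do not say that these numbers pair samples, and the smallest limma adjusted p of a lincRNA probe under that block was 0.181. Of the 17 in the fit without a block, 8 plus and 6 minus probes were lower in CIE, where the background was 1.67%, and 3 plus and 0 minus probes were higher, where the background was 0.467%. The median standard error of a difference over the lincRNA probes was 0.318 log2 units without a block and 0.208 with consecutive numbers as a block.

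As a group the tested lincRNA probes lay slightly lower in CIE, equally on both strands. The median difference, CIE minus Control, was -0.16 for plus and -0.15 for minus probes, and -0.05 for all tested probes. A difference above 0 was found for 30.5% of plus and 28.6% of minus probes, where the background was 42.9%. Over 1.5-fold lower in CIE were 39 plus (10.0%) and 35 minus probes (9.19%), where the background was 5.14%, and over 1.5-fold higher were 9 plus (2.31%) and 7 minus probes (1.84%), where the background was 2.99%. The medians without CIE 2 were -0.06 for plus and -0.09 for minus probes, against -0.04 for all tested probes. With every member included, detected or not, they were -0.01 and -0.0040, against -0.01 for all non-control probes. Among probes detected on all 10 arrays they were -0.099 and -0.13, against -0.04 for all such probes. There 35.1% of plus and 29.6% of minus probes were higher in CIE, against 44.7% of all such probes. Because a probe detected mainly in one group can enter the test through that group, the figures over tested probes describe those probes alone.

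The median was below 0 at each level. Among probes with a mean level under -2 the median difference was -0.17 for 164 plus and -0.18 for 166 minus probes, against -0.06 for all probes of that range. Above 2 it was -0.19 for 49 plus and -0.22 for 38 minus probes, against -0.12 for all. The P series, whose class is not stated in the files, had the same median as the lincRNA probes, -0.16, while the LNC series had -0.06 and the AP series -0.01. Within slide 1, where position row and group nearly coincide, the medians were -0.22 for plus, -0.19 for minus and -0.10 for all tested probes.

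By name, the lincRNA probes form 3 sets whose prefixes the files do not explain. The humanlincRNA set held 1092 probes, of which 41.0% of 542 plus and 42.4% of 550 minus probes were detected on at least 5 arrays. For the mouselincRNA set of 639 probes the shares were 45.8% of 321 and 42.1% of 318, and for the MM9LINCRNAEXON set of 75 probes 42.0% of 50 and 56.0% of 25. The median difference between CIE and Control lay between -0.13 and -0.19 on both strands of the first 2 sets. It was -0.37 for the 21 tested plus probes and -0.14 for the 14 tested minus probes of MM9LINCRNAEXON. Thus the humanlincRNA probes were detected about as often as those with mouse in their name.

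The probe with the smallest p was the plus probe of mouselincRNA0561. Its levels on Control 1, 4, 6, 7 and 9 were -2.53, -2.54, -2.52, -2.82 and -2.82. On CIE 2, 3, 5, 8 and 10 they were -3.61, -3.68, -2.92, -3.36 and -3.23. Every CIE array lay below every Control array, but the probe was detected on 2 of the CIE arrays alone, against all 5 Control arrays. Those 5 Control arrays alone let it pass the filter, so its difference and p are a description and no support for a change. The difference was -0.72 (SE 0.20), with an unadjusted limma p of 0.0043 and an adjusted p of 0.989. On slide 1 alone it was -0.76, and with normexp background correction and quantile normalization it was -0.12.

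Non-overlapping groups were rare on both strands. CIE lay wholly below Control for 3 plus probes and 1 minus probe (0.519% of 771), where the background was 0.211%, and wholly above for 0 members, where the background was 0.111%. The second plus probe was mouselincRNA0466, with -2.35, -2.30, -2.31, -2.20 and -2.20 in Control and -3.17, -2.88, -2.37, -3.06 and -2.87 in CIE. CIE 5 nearly met Control 1. The third was mouselincRNA0869, with -2.22, -1.75, -2.05, -2.38 and -2.13 in Control and -3.02, -2.87, -2.53, -3.86 and -2.41 in CIE. CIE 8 was the lowest there, and CIE 10 nearly met Control 7. Their differences were -0.60 (SE 0.20) and -0.84 (SE 0.28), and the limma adjusted p was 0.989 for both. The minus probe was that of mouselincRNA0997.

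A pair of further plus probes completed the 5 with the smallest p among those lower in CIE. mouselincRNA1533 differed by -1.20 (SE 0.43) at levels between -5.33 and -2.26, and was detected on 4 Control arrays and 1 CIE array. It thus passed the filter mainly through Control arrays, and its difference is a description. humanlincRNA1150 differed by -0.86 (SE 0.33) and was detected on all 5 Control arrays and 3 CIE arrays. Both groups overlapped at these probes, through CIE 3 at mouselincRNA1533 and CIE 5 at humanlincRNA1150.

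Among the minus probes lower in CIE, mouselincRNA1124 was the brightest of the 5 with the smallest p. Its levels were 4.47, 4.28, 4.62, 4.65 and 3.81 in Control and 2.90, 3.76, 3.87, 3.17 and 4.36 in CIE. CIE 10 lay among the Control arrays and Control 9 among the CIE arrays. The difference was -0.76 (SE 0.30, limma adjusted p 0.989), and -0.94 without CIE 10. The other 4 were mouselincRNA0529 at -0.57 (SE 0.22), mouselincRNA0072 at -0.77 (SE 0.32), humanlincRNA1019 at -0.60 (SE 0.25) and mouselincRNA0327 at -0.44 (SE 0.20). Of these, mouselincRNA0072 was detected on 1 CIE array and 4 Control arrays, and so passed the filter mainly through Control arrays.

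Among plus probes higher in CIE, MM9LINCRNAEXON11641 had the smallest p. The largest difference upward of any tested member was 1.20 (SE 0.86), at the minus probe of humanlincRNA1025, named here after its value was seen. That probe was detected on at least 3 CIE arrays and fewer than 3 Control arrays. It thus passed the filter mainly through CIE arrays, and its difference is a description. The levels of MM9LINCRNAEXON11641 were -2.46, -3.07, -2.95, -3.20 and -3.60 in Control and -1.87, -1.51, -2.11, -2.61 and -3.07 in CIE. CIE 8 and CIE 10, the 2 arrays of slide 2, lay within the Control range. The difference was 0.82 (SE 0.32, limma adjusted p 0.989), and 1.23 on slide 1 alone. The next plus probes were humanlincRNA0226 at 0.51 (SE 0.22), humanlincRNA1627 at 0.81 (SE 0.37), mouselincRNA1181 at 0.50 (SE 0.23) and humanlincRNA0744 at 0.69 (SE 0.34), each with overlapping groups.

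The 5 minus probes with the smallest p among those higher in CIE all had the same array highest, CIE 10. For mouselincRNA1671, the level was 1.62, 1.76, 2.16, 1.44 and 1.78 in Control and 1.75, 2.42, 2.34, 2.00 and 3.60 in CIE. CIE 10 stood over 1 unit above the rest. It was also the highest array at humanlincRNA0246 (2.15), humanlincRNA0323 (2.54) and humanlincRNA1086 (2.65). Differences at these 4 minus probes were 0.67, 0.53, 0.54 and 0.52 (SE 0.33, 0.27, 0.28 and 0.29), and 0.38, 0.32, 0.29 and 0.30 without CIE 10. The fifth, mouselincRNA0963, had the smallest p, at 0.75 (SE 0.35), and its difference was 0.53 without CIE 10. The limma adjusted p was again 0.989 for all 5.

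Probes detected on all 5 Control arrays and on at most 2 CIE arrays were dim on both sides. They were chosen for that contrast, and most of the arrays that let them pass the filter were Control arrays, so their differences are a description with no test. mouselincRNA1267 had the largest difference, -1.66, on the plus strand. Its levels were 1.44, -2.39, -2.35, -3.11 and -2.51 in Control and -3.74, -4.10, -3.19, -3.85 and -2.35 in CIE. Control 1 alone lay above 0, and without it the difference was -0.86. The next were the plus probes of humanlincRNA2143 at -0.99, humanlincRNA0016 at -0.88 and mouselincRNA0703 at -0.87, and the minus probe of humanlincRNA1113 at -0.83.

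Whether CIE shifted the balance between strands was asked within each array. For the 168 loci with both strands detected, the plus minus minus difference was taken on each array and compared between groups, which cancels any scaling that both probes share. By limma with adjustment over these loci, 0 were called, where the background was 0%, and the smallest adjusted p was 0.912. At an unadjusted limma p under 0.05 stood 9 loci, which is the background of 5.36% itself, since these loci are all that were tested. With consecutive numbers as a block there were 26 (15.5%), and the smallest adjusted p was 0.205. The median difference was 0.0022 log2 units, and the median 95% interval reached 1.01 units to either side. Both strands were lower in CIE at 78 loci, both higher at 15, and of opposite sign at 75.

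**Figure D4:**
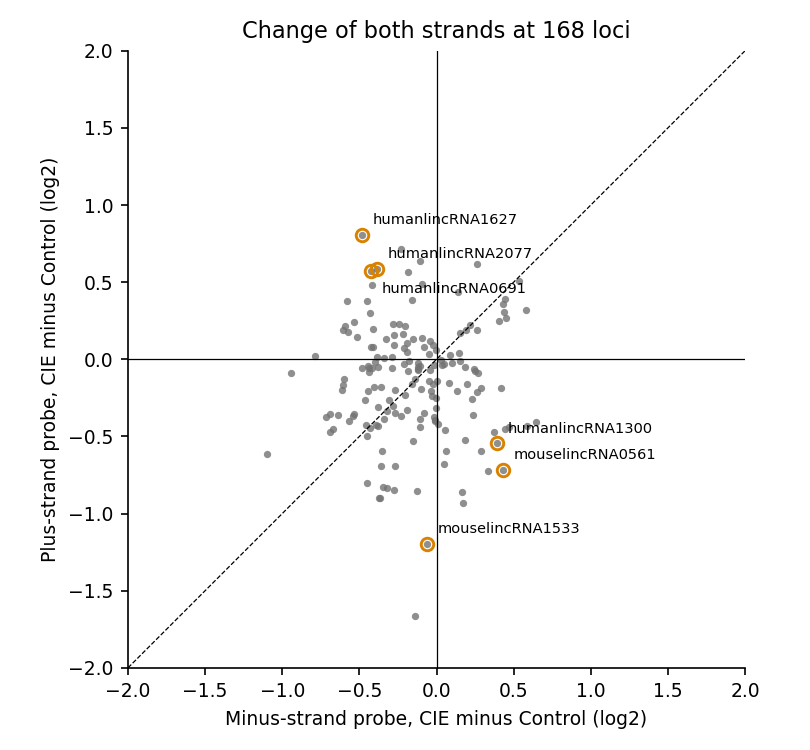
Difference of the plus-strand probe (vertical axis) against that of the minus-strand probe (horizontal axis), CIE minus Control in log2 units, at the 168 loci with both strands detected; the dashed line marks equal change and rings mark the 6 loci with the smallest p for a strand difference. The lower left quadrant holds 78 loci and the upper right 15, and none of the ringed loci passed the adjusted threshold.

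The locus with the smallest p for a strand difference was humanlincRNA1627. Its plus minus minus difference was 2.89, 2.58, 2.61, 2.00 and 2.06 on the Control arrays and 4.33, 3.17, 3.30, 3.28 and 4.52 on the CIE arrays. The groups did not overlap, and CIE 2 and CIE 10 lay highest. The difference was larger in CIE by 1.29 (SE 0.39, limma adjusted p 0.912), made up of 0.81 on the plus and -0.48 on the minus strand. It was 1.17 on slide 1 alone and between 1.09 and 1.43 with any 1 array left out.

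The next loci by p had smaller differences. humanlincRNA2077 differed by 0.97 (SE 0.38) and humanlincRNA0691 by 1.00 (SE 0.41), both with the plus probe higher and the minus probe lower in CIE. In the other direction, mouselincRNA0561 differed by -1.15 (SE 0.39), with -3.87, -3.44, -2.84, -3.20 and -3.09 in Control and -4.65, -5.40, -3.63, -4.08 and -4.43 in CIE. CIE 5 lay inside the Control range there, and the minus probe was 0.43 higher in CIE while the plus probe was lower. mouselincRNA1533 differed by -1.14 (SE 0.46) and humanlincRNA1300 by -0.94 (SE 0.41). The limma adjusted p of these 5 loci was 0.918. The plus probes of mouselincRNA0561 and mouselincRNA1533 passed the filter mainly through Control arrays, so the differences at both loci are a description.

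**Figure D5:**
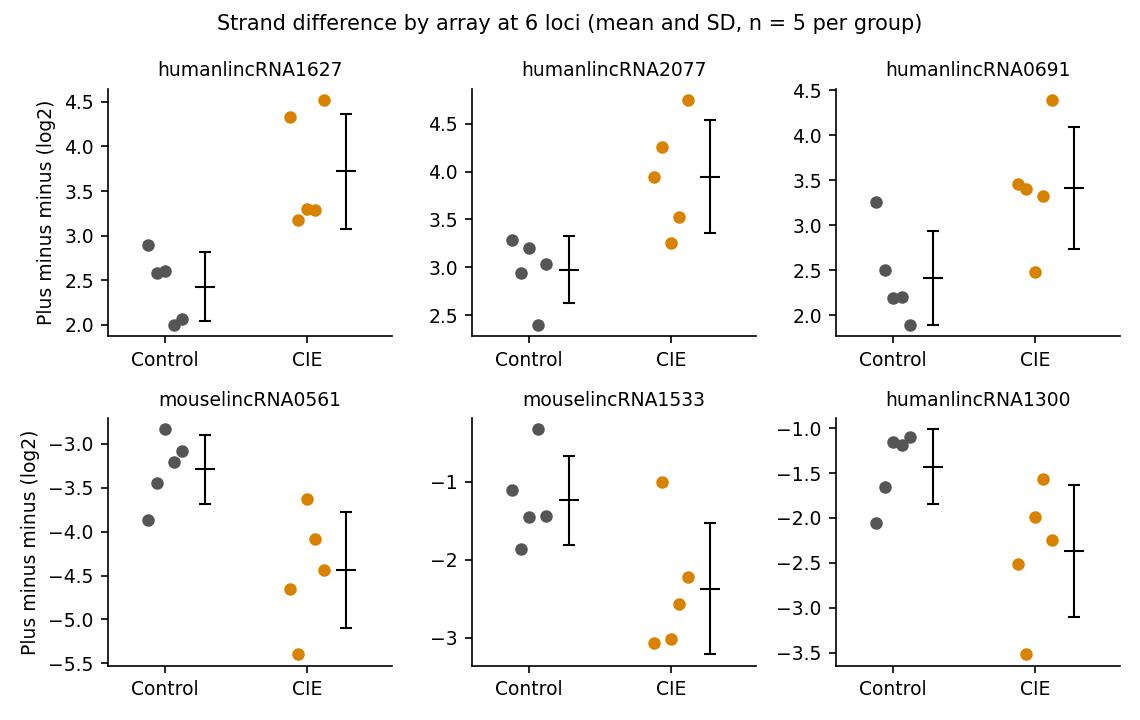
Plus minus minus difference (log2, vertical axis, with a range of its own in each panel) on the 5 Control and 5 CIE arrays at the 6 loci with the smallest p in either direction; each point is 1 array, and the bars give the group mean and SD (n = 5). At humanlincRNA1627 all CIE arrays, from 3.17 to 4.52, lie above all Control arrays, from 2.00 to 2.89.

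Loci with consecutive numbers were compared, since neighbours in number might be neighbours in the genome, which the files do not state. Of 129 consecutive humanlincRNA pairs with both strands probed, 71 had the same strand brighter, and of 76 mouselincRNA pairs, 42 did. Among pairs in which each locus had a single detected strand, the strand was the same in 17 of 29 humanlincRNA and 11 of 18 mouselincRNA pairs. Among pairs with a detected strand at both loci, the same strand was brighter in 32 of 54 humanlincRNA and 16 of 28 mouselincRNA pairs. The counts over all pairs include loci with neither strand detected, where the order is one of background readings. No test was made of these counts, and no sharing of strand is read from them.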

How the data were processed

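RNA of brain vesicles was measured on 10 one-colour arrays, 5 Control and 5 CIE. The authors deposited the spot intensity that Agilent Feature Extraction (version 11.0.1.1 in the file headers) gives after subtracting background. They also deposited a log2 table of the same arrays, taken as log2 from its values; its normalization and centring are not stated, each column had a median of 4.60, and its direction follows the scanner values (r 0.988 to 0.991 after quantile normalization). The grid build is named mm9:NCBI37:Jul2007; positions and probe sequences were not used here.

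Outlier spots were left out, each array's 75th percentile over non-control probes was taken off the log2 intensity, and probes that 5 or more of the 10 arrays detected were tested with limma 3.58.1 (R 4.3.3; Benjamini-Hochberg over all 43080, threshold 0.05). Fits were tested on simulated data. A difference between strands was fitted per locus over the 168 loci with both strands tested. Outlier spots were dropped from the fits, so humanlincRNA1596 and humanlincRNA2246 have fewer arrays. Named probes are, per strand, the 5 with the smallest p in each direction and the 5 brightest; named loci are those with the largest gaps (5 in each direction), the brightest dimmer strand (5) and the smallest p of the strand difference (3 in each direction); 5 probes were added by detection in all Control arrays. Alternatives were other scalings, normexp (offset 50, on median spot signals, the files holding no mean signal), the deposited table, filters, slide, blocks and leaving out arrays. Precision is limited by the number of arrays. The members and lists were chosen with earlier results of these data known. Of 50 probes with a public identifier, 46 had a symbol in RefSeq tables (GRCm38.p6).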

Additional observations from a re-analysis of the deposited data

Results flagged for a closer look

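Of 134 groups of 5 values examined by Dixon's test at the 95% level, 10 had 1 array far from the other 4, where 6.7 would be 1 in 20. The median over all plus probes was -4.46 on Control 1 (nearest Control array -3.93), and over all minus probes -4.36 (nearest -3.96). The median of the detected minus probes was -1.80 on Control 1 (nearest -1.59) and -2.14 on CIE 2 (nearest -1.66), and that of the detected plus probes was -1.92 on CIE 2 (nearest -1.57). Control 1 and CIE 2 were thus the low arrays of their groups on both strands.

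Single probes stood apart as well. The plus probe of mouselincRNA1267 read 1.44 on Control 1, against -2.35 on the next Control array. MM9LINCRNAEXON11711 read 9.33 on Control 1 (next 8.79), on the plus strand, and the minus probe of mouselincRNA1606 read 11.27 on CIE 8 (next 10.49). The plus minus minus difference of humanlincRNA2330 was 15.19 on Control 7 (next 14.75), and that of mouselincRNA1606 was -5.79 on CIE 5 (next -8.25).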

How the results depend on the processing

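No lincRNA probe, no probe of the array and no strand difference was called by limma under any of the 23 alternatives. With the scanner program's weaker call, positive and significant, in place of well above background, 67.8% of plus and 67.4% of minus probes were detected, 406 loci had both strands and 356 a single one, which reverses the order of these classes. Of 41 named differences, 35 kept their sign throughout. Those named for a small p or for detection were picked from these values, so their steady sign was partly built in. The 6 that reversed at least once were all among the probes named for brightness. Under quantile normalization, normexp and the authors' deposited table, the differences turned to -0.078, -0.090 and -0.076 at humanlincRNA2397 (plus), to -0.093, -0.11 and -0.093 at mouselincRNA1606 (minus) and to -0.029, -0.055 and -0.029 at mouselincRNA0161 (minus), the last also to -0.16 with slide as a block and on slide 1 alone; the cause was not tested. With 1 array left out, the range was -0.21 to 0.0033 at MM9LINCRNAEXON11711 (plus; highest without Control 1), -0.13 to 0.36 at mouselincRNA0161 (lowest without CIE 8), -0.028 to 0.30 at humanlincRNA1516 (minus; lowest without CIE 2) and -0.44 to 0.082 at humanlincRNA2163 (minus; highest without Control 1). Probes at an unadjusted limma p under 0.05 ranged, with 1 array left out, from 6 to 40 plus and 2 to 36 minus probes (most without CIE 5, fewest without Control 4), and from 402 to 2347 of all probes. Without a filter they numbered 34 plus, 23 minus and 1599 of all probes (3.16% of lincRNA and 2.63% of all probes tested), and with slide as a block 31, 32 and 2172. The share difference, CIE minus Control, ranged from -8.27 (without CIE 10) to -4.18 points (without Control 9) for plus and from -7.24 to -3.29 for minus probes. The share of probes higher in CIE was 40.5% plus and 36.5% minus without CIE 2, against 43.9% of all tested probes. Without a filter it was 48.7% and 49.5%, against 48.7% of all probes. The groups share no replicate number, so the labels pair no arrays. A paired fit with consecutive sample numbers as a block called 0 probes, but moved the counts most: 77 plus, 68 minus and 6389 of all probes (18.8% of lincRNA and 14.8% of all probes tested) and 26 loci had an unadjusted limma p under 0.05. Averaging the probes of a locus strand gave no separate value, since each has 1 probe. Probes near background give readings with no order between them, which limits the strand gaps at single-strand loci.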
